A study of Mus musculus with 2 samples.

Results

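The 10 genes described here are clade A serpin genes of the liver: Serpina1a, Serpina1b, Serpina1c, Serpina1d, Serpina1e, Serpina3k, Serpina3m, Serpina3n, Serpina6 and Serpina10. They were found in the deposited tables through the Ensembl identifiers that carry these symbols in GENCODE mouse release M21, which gave 10 of 10 members among 20505 listed genes. Levels were measured by RNA sequencing of total RNA from primary hepatocytes, liver cells freed with collagenase from C57BL/6 mice and cultured in DMEM with 5% FBS. The group labelled HuR had received an adenovirus carrying HuR overnight, and the group labelled β-Gal an adenovirus carrying β-galactosidase, so cells of both groups were cultured and infected. HuR, encoded by Elavl1, is a protein that attaches to AU-rich and U-rich stretches of messenger RNAs. β-Galactosidase is a bacterial enzyme used as a control protein. Each group was 1 library, so no difference below has a replicate check, a test between conditions or a p-value. The sources used here do not say how many mice or cultures went into a library, nor the age or sex of the mice.

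Serpins are protease inhibitors that work as bait. An exposed stretch of the protein, the reactive centre loop, is cut by the target protease, and the serpin then changes shape and traps the protease in a covalent complex. Hepatocytes secrete large amounts of several of them into plasma. The Serpina1 genes encode mouse forms of α1-antitrypsin. In humans this protein is encoded by SERPINA1 alone and protects tissue from neutrophil elastase. The mouse copies differ in the reactive centre loop, and these data do not show which of them inhibit that protease. The Serpina3 genes are the mouse counterparts of human α1-antichymotrypsin and include inhibitors of kallikrein, granzyme B and neutrophil proteases. Serpina6 encodes corticosteroid-binding globulin, which carries glucocorticoids in blood and inhibits no known protease. Serpina10 encodes the protein Z-dependent inhibitor of coagulation factor Xa.

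The 10 genes lie in 1 cluster on chromosome 12 (GRCm38, 103614786 to 104414329, 799.5 kb). Serpina10 (ENSMUSG00000061947, 103614786 to 103631444) and Serpina6 (ENSMUSG00000060807, 103646630 to 103657212) stand at one end on the minus strand. The Serpina1 copies follow on the same strand, in the order Serpina1b (ENSMUSG00000071178, 103728156 to 103830373), Serpina1d (ENSMUSG00000071177, 103763594 to 103773592), Serpina1a (ENSMUSG00000066366, 103853589 to 103863562), Serpina1c (ENSMUSG00000079015, 103894926 to 103904887) and Serpina1e (ENSMUSG00000072849, 103946931 to 103958975). The Serpina3 genes close the cluster on the plus strand, namely Serpina3k (ENSMUSG00000058207, 104338486 to 104346144), Serpina3m (ENSMUSG00000079012, 104338486 to 104394257) and Serpina3n (ENSMUSG00000021091, 104406729 to 104414329). Of 42 genes annotated in the interval, 28 are serpin genes or serpin pseudogenes, 23 were listed in both tables and 14 reached 1 FPKM in either library. The 10 members made up 99.3% of the FPKM listed in the interval in the HuR library and 99.2% in the β-Gal library.

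The Serpina1 copies are nearly the same gene, which sets how far their values can be told apart. Over 1239 coding bases, any pair of the 5 copies differed at 19 to 46 bases, an identity of 96.3% to 98.5%, and the closest pair was Serpina1a and Serpina1c. Of all 60-base windows, coding bases 1101 to 1160 held the most differences, with 18 of the 86 variable positions, against a mean of 4.165 per window of that size. This window encodes part of the reactive centre loop, the stretch that meets the protease. It lies within 1 exon of each copy and on the minus strand of chromosome 12. The sequences are shown because reads from this window can be told apart between copies, and reads from most other places less easily. Capitals mark the positions at which the 5 copies are not all alike. In GRCm38 the windows lie at chr12:103853757-103853816 (Serpina1a), chr12:103728324-103728383 (Serpina1b), chr12:103895094-103895153 (Serpina1c), chr12:103763762-103763821 (Serpina1d) and chr12:103947100-103947159 (Serpina1e).
Serpina1a: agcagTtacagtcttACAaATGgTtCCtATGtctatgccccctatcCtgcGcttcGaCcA
Serpina1b: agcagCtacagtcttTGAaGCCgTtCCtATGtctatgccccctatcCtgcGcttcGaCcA
Serpina1c: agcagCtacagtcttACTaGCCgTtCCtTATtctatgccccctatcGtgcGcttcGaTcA
Serpina1d: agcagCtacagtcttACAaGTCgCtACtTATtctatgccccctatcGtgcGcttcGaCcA
Serpina1e: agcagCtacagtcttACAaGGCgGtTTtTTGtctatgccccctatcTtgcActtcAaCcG

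The same closeness is seen upstream of the genes. RefSeq promoters (GRCm38.p6, 250 bases before to 50 after the start) were at hand for 6 of the 10 members, the 5 Serpina1 copies and Serpina3n. All 5 Serpina1 promoters held a 59-base run without a single difference, and no other promoter among 32851 from 27025 genes held it. The run is shown because the 5 genes that share it stood at very different levels. Capitals mark the letters GTTAAT, the core of a site of HNF1, a transcription factor of hepatocytes.
Shared run: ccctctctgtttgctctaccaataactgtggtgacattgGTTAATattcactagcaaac
In Serpina1a the run lies at chr12:103863621-103863679 on the minus strand and ends 1 base before the RefSeq start. It ends 6 bases before the start in Serpina1b (chr12:103738196-103738254), 7 in Serpina1c (chr12:103904958-103905016) and 58 in Serpina1e (chr12:103956956-103957014), and in Serpina1d (chr12:103773630-103773688) it runs 4 bases past it. On either strand, GTTAAT was found in 5 of 6 member promoters and in 7.10% of all promoters, and CCAAT in 5 of 6 and in 37.4%. Both motifs lie within the run that the 5 Serpina1 copies share, so these are not 5 separate finds, and enrichment was not tested. The run holds CCAAT on the printed strand, and on the opposite strand CCAAT overlaps its GTTAAT by 1 base. TATAAA was in 0 of 6 member promoters and 13.6% of all promoters, and TTCNNNGAA, the letters of a STAT site, in 0 of 6 and 8.30%. The Serpina3n window held none of these 4 motifs. A match of letters is not evidence of binding, and a missing match says only that the letters are not in this window.

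How much of each transcript is its own was computed from the GENCODE transcripts, as the share of windows of a given length that occur in no other gene. At 100 bases the share was 81.8% for Serpina1e, 73.6% for Serpina1b and 70.7% for Serpina1d, but 39.0% for Serpina1a and 30.7% for Serpina1c. The Serpina3 genes were easier to separate, with 95.1% for Serpina3k, 93.9% for Serpina3m and 99.8% for Serpina3n, and Serpina6 and Serpina10 shared no window of that length with another gene. Coding identity in the Serpina3 group was 91.4% between Serpina3k and Serpina3m, 85.2% between Serpina3m and Serpina3n and 82.9% between Serpina3k and Serpina3n, while genes of different groups were 45.2% to 57.4% identical over their aligned coding bases (32 pairs). Read length, and how reads that match several copies were counted, are not stated in the labels. Values of single Serpina1 copies are therefore uncertain, those of Serpina1a and Serpina1c most of all, and the summed value is given beside them.

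**Figure D1:**
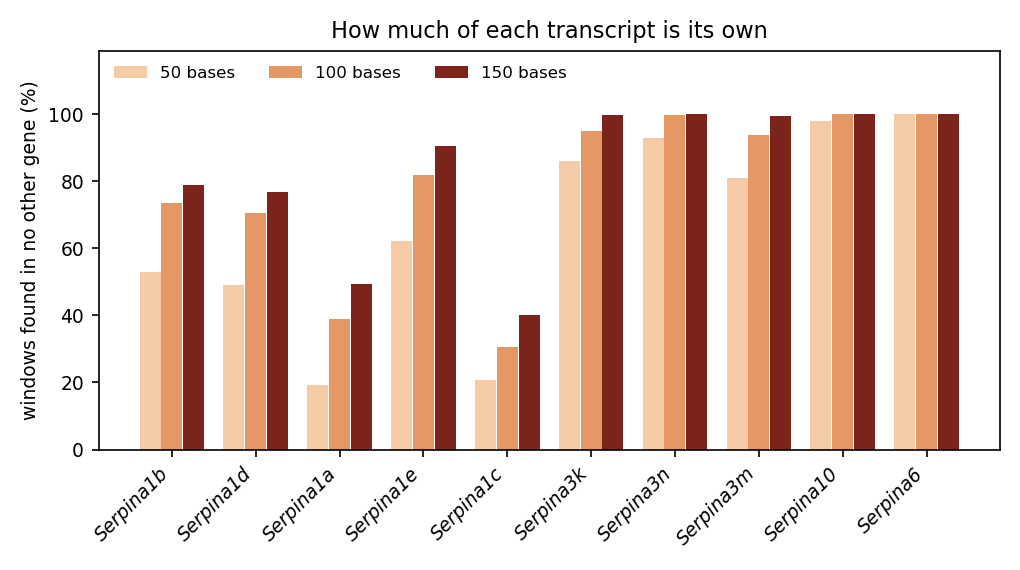
Share of transcript windows of 50, 100 and 150 bases that occur in no other GENCODE gene (vertical axis, %), for each serpin gene. Serpina1a and Serpina1c have the lowest bars, 39.0% and 30.7% at 100 bases, while Serpina3n, Serpina6 and Serpina10 are at or near 100% at that length.

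Gene models overlap in the cluster as well. An annotated transcript makes the Serpina1b gene span all 9999 bases of Serpina1d on the same strand, together with the pseudogenes Gm17042, Gm17043 and Gm8893. Serpina3m has a transcript that spans the 7659 bases of Serpina3k on the same strand, and Serpina1c has an antisense partner, B430119L08Rik, over 2888 bases. This is an overlap of gene bounds, and exons were not compared. Serpina1c (103894926 to 103904887) extends beyond the partner (103895897 to 103898784) on both sides. No strand setting is given, so reads within the overlap may not be separable by strand. The partner itself was listed at 0 in the HuR library and at 0.0546 FPKM, or 2 reads, in the β-Gal library.

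The tables gave FPKM, which is the reads of a gene divided by its transcript length and by the size of the library. The values moved in whole reads, from which totals of 17671387 reads in the HuR library and 18357017 reads in the β-Gal library followed, and each member lay within 0.00025 of a whole read in both. Intervals in parentheses are 95% intervals (exact Clopper-Pearson) from these reads, and they cover counting error only. Elavl1 stood at 4480 FPKM in the HuR library and 9.67 FPKM in the β-Gal library (463-fold, 428 to 503), as the labels have it. No gene was at 0 in the β-Gal table and 2233 were at 0 in the HuR table, so a gene at 0 in the β-Gal library is not analysed here. Log2 fold changes are log2((HuR FPKM + 1)/(β-Gal FPKM + 1)), where the added 1 understates changes of low genes. Comparison was limited to the 12905 genes that reached 1 FPKM in one library or both. Their median was -0.17, and -0.01 among the 4236 compared genes with at least 30 FPKM. Of 10 hepatocyte markers 10 were listed, led by Alb at 27642 FPKM in the HuR library and 25353 FPKM in the β-Gal library.

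Serpin transcripts were plentiful in both libraries, and as a group somewhat more so with HuR. The 10 members summed to 3054 FPKM in the HuR library and 2554 FPKM in the β-Gal library. In reads this was 79147 of the HuR library and 68738 of the β-Gal library, or 0.448% (0.445 to 0.451) of all reads with HuR and 0.375% (0.372 to 0.377) with β-Gal. The ratio of the shares was 1.20 (1.18 to 1.21). On the log2 scale the sum differed by 0.26 as deposited, by 0.42 once values were centred on the median gene, and by 0.08 once the trend of fold change with GC content and transcript length over all genes was removed. All 10 members passed the 1 FPKM filter in both libraries, the lowest value being 14.4 FPKM.

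No member differed by 2-fold. In the HuR library 5.35% of the compared genes lay 2-fold or more above the β-Gal library and 8.31% lay 2-fold or more below it, against 0 of 10 members in either direction. At 1.5-fold, 1 member, Serpina3n, was higher and 0 were lower, where 12% of compared genes were higher and 23.4% lower. The counting interval of the fold lay wholly above 1 for 7 of 10 members and wholly below 1 for 2, against 26.5% and 46.3% of the 12678 compared genes with a length. Such intervals narrow as reads rise, and these shares are not matched for level. Serpina3k, for one, counts as above at 1.03-fold. The median log2 fold change of the members was 0.21, with a range of -0.31 to 0.87. It was -0.17 for all compared genes and -0.01 for those with at least 30 FPKM. As deposited, 7 members had a log2 fold change above 0. This became 8 once values were centred on the median gene, where Serpina3m turned to 0.13, and 5 with the GC and length trend removed, where Serpina1a turned to -0.02 and Serpina3k to -0.05.

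**Figure D2:**
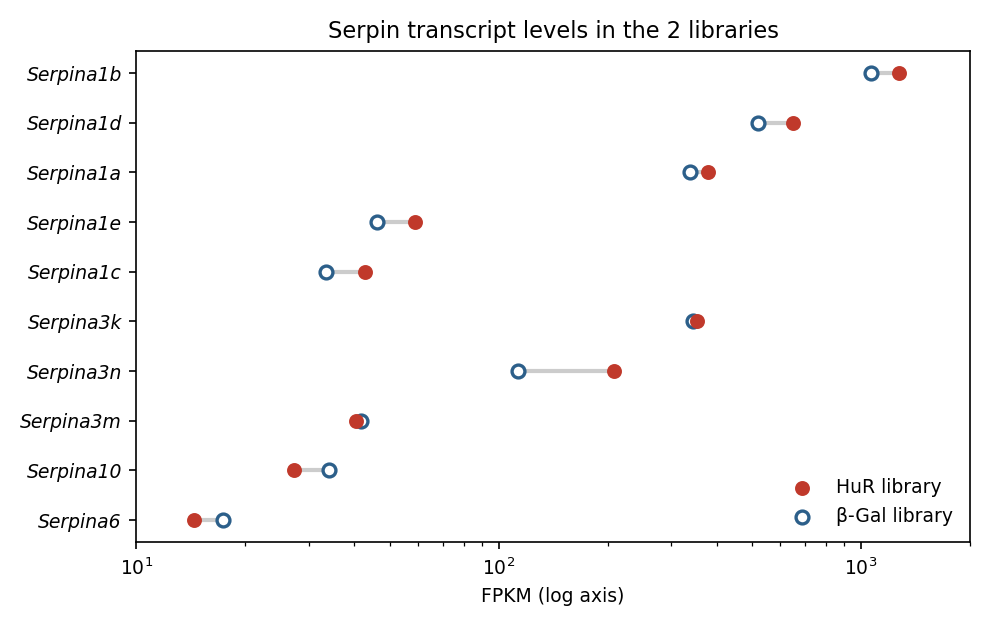
FPKM of each serpin gene (horizontal log axis) in the HuR library (filled red) and the β-Gal library (open blue), 1 library each. The gap is widest for Serpina3n, at 208 FPKM with HuR and 113 FPKM with β-Gal, and the 5 Serpina1 copies lie to the right with HuR while Serpina6 and Serpina10 lie to the left.

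Among the α1-antitrypsin genes, Serpina1b was the most abundant member in both libraries. It stood at 1279 FPKM (29673 reads) in the HuR library and 1064 FPKM (25656 reads) in the β-Gal library, 1.20-fold (1.18 to 1.22), and ranked 75 with HuR and 73 with β-Gal by level among all listed genes. Serpina1d stood at 652 FPKM with HuR and 522 FPKM with β-Gal, 1.25-fold (1.22 to 1.28). Serpina1a stood at 379 FPKM with HuR and 338 FPKM with β-Gal, 1.12-fold (1.09 to 1.16), and its log2 value of 0.17 was the one of the 5 that changed sign with the GC and length trend removed. These 3 copies carried nearly all of the α1-antitrypsin reads.

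The remaining copies were far lower in level and gave folds of similar size. Serpina1e stood at 58.6 FPKM with HuR and 46.2 FPKM with β-Gal, 1.27-fold (1.18 to 1.37). Serpina1c stood at 42.9 FPKM with HuR and 33.3 FPKM with β-Gal, 1.29-fold (1.17 to 1.41). The counting intervals of Serpina1b, Serpina1d, Serpina1e and Serpina1c overlapped one another, and that of Serpina1a ended below the start of all of these. The ratio of the Serpina1d fold to the Serpina1a fold was 1.11 (1.07 to 1.16, counting error only). The share of compared genes with a lower log2 fold change ran from 70.5% for Serpina1a to 80.4% for Serpina1c.

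Summed, the 5 α1-antitrypsin genes stood at 2411 FPKM in the HuR library and 2004 FPKM in the β-Gal library. This sum still depends on where a read was placed, as the copies differ in transcript length, while a sum of reads does not. In reads, the 5 genes took 56098 with HuR and 48340 with β-Gal. This was 0.318% (0.315 to 0.320) of reads with HuR and 0.263% (0.261 to 0.266) with β-Gal, a ratio of 1.206 (1.191 to 1.22). Reads left out for matching several copies, if any, are in neither sum. The log2 difference of 0.27 became 0.43 once centred on the median gene and 0.06 with the GC and length trend removed, so its size depends on that choice while its sign did not change.

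The balance among the copies was much alike in both libraries. Serpina1b gave 52.9% (52.5 to 53.3) of the α1-antitrypsin reads with HuR and 53.1% (52.6 to 53.5) with β-Gal, intervals that overlap. Serpina1d gave 28.6% (28.2 to 29.0) with HuR and 27.6% (27.2 to 28.0) with β-Gal, and Serpina1a 14.01% (13.7 to 14.3) with HuR and 15.05% (14.7 to 15.4) with β-Gal. For these last copies the intervals did not overlap, yet the difference was about 1 percentage point and rests on reads between near-identical copies. Serpina1e gave 2.65% with HuR and 2.52% with β-Gal, and Serpina1c 1.84% with HuR and 1.72% with β-Gal. As counted, the 5 genes that share the promoter run printed above thus differed among themselves far more than any of them differed between libraries. The copies also differ in how much of their transcript is their own, from 30.7% for Serpina1c to 81.8% for Serpina1e at 100 bases. Shares and levels were not corrected for this, so the balance among copies is less certain than the counting intervals show.

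**Figure D3:**
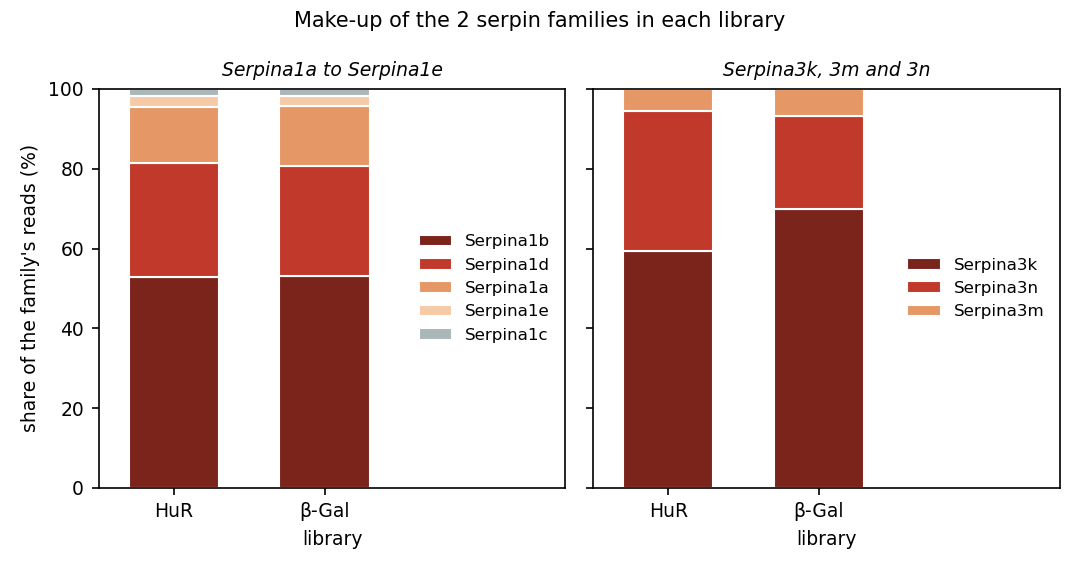
Share of reads (vertical axis, %) of each copy within the Serpina1 group and within the Serpina3 group, in the HuR library (left bar of each panel) and the β-Gal library (right bar). The Serpina1 bars look alike, while in the Serpina3 panel Serpina3n takes 35.2% with HuR and 23.15% with β-Gal.

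Serpina3n differed most between the libraries, in the Serpina3 group and among all 10 members. In mouse it encodes an inhibitor of granzyme B and of neutrophil and mast cell proteases, and it is induced in liver in the acute phase response. It stood at 208 FPKM (7602 reads) in the HuR library and 113 FPKM (4294 reads) in the β-Gal library, 1.84-fold (1.77 to 1.91), and ranked 583 with HuR and 1061 with β-Gal. Its log2 fold change of 0.87 was above that of 93.2% of compared genes. It passed 2-fold, at 1.04, once values were centred on the median gene, and stood at 0.70 with the GC and length trend removed.

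The other genes of the group hardly differed. Serpina3k, which encodes a kallikrein-binding inhibitor also named contrapsin, stood at 353 FPKM (12826 reads) with HuR and 344 FPKM (12986 reads) with β-Gal, 1.03-fold (1.001 to 1.05). Serpina3m stood at 40.5 FPKM with HuR and 41.6 FPKM with β-Gal, 0.972-fold (0.898 to 1.05), an interval that spans 1. Because the gene models of this pair overlap, they were also summed, to 393 FPKM with HuR and 386 FPKM with β-Gal, 1.02-fold (0.998 to 1.04). The fold of Serpina3n was 1.79 times (1.71 to 1.87) that of Serpina3k and 1.53 times (1.47 to 1.59) that of the summed Serpina1 copies, with intervals for counting error only.

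As a result the make-up of the Serpina3 reads was not the same in both libraries. Serpina3n gave 35.2% (34.5 to 35.8) of them with HuR and 23.15% (22.55 to 23.8) with β-Gal. Serpina3k gave 59.3% (58.7 to 59.99) with HuR and 70.0% (69.35 to 70.7) with β-Gal, and Serpina3m 5.49% with HuR and 6.84% with β-Gal. The 3 genes together stood at 602 FPKM with HuR and 499 FPKM with β-Gal (log2 difference 0.27), while Serpina3k and Serpina3m without Serpina3n differed by 0.03.

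Serpina10 and Serpina6 lay below 0 on the log2 scale under every scaling tried. Serpina10 stood at 27.2 FPKM (1184 reads) in the HuR library and 34.0 FPKM (1537 reads) in the β-Gal library, 0.8002-fold (0.741 to 0.864). Serpina6 stood at 14.4 FPKM (250 reads) with HuR and 17.4 FPKM (313 reads) with β-Gal, 0.830-fold (0.700 to 0.983), the least precise value of the 10. Summed, the ratio of their reads was 0.805 (0.751 to 0.863), and the fold of the Serpina1 copies was 1.497 times (1.40 to 1.61) theirs. Relative to the median of all genes these were small differences, as 40.3% of compared genes lay below Serpina10 and 44.3% below Serpina6.

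The level of Serpina6 rests on an average over 2 annotated transcripts, one of 1605 bases and a fragment of 356 bases. On the longer transcript alone it would be 8.81 FPKM with HuR and 10.6 FPKM with β-Gal. For Serpina10, with a transcript of 3498 bases, the values would be 19.2 FPKM with HuR and 23.9 FPKM with β-Gal. The Serpina1 levels moved less, with Serpina1b at 1205 FPKM with HuR and 1003 FPKM with β-Gal on its 5-exon transcript. Folds between libraries are not touched by the choice of length, as it cancels.

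By level per length, the order was Serpina1b, Serpina1d, Serpina1a, Serpina3k, Serpina3n, Serpina1e, Serpina1c, Serpina3m, Serpina10 and Serpina6 in the HuR library. In the β-Gal library, Serpina3k (344 FPKM) stood above Serpina1a (338 FPKM) and both Serpina3m (41.6 FPKM) and Serpina10 (34.0 FPKM) above Serpina1c (33.3 FPKM), with no other change in the order. Serpina1a and Serpina3k are neighbours that the uncertainty of transcript length alone could swap, since Serpina1a would be 327 FPKM with HuR and 291.5 FPKM with β-Gal on its 5-exon transcript. The order is that of FPKM as deposited, with no correction for the windows that copies share.

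HuR is known for its affinity to AU-rich stretches, so the ends of the transcripts were searched for such letters. For members the transcript was the shortest of 5 exons among those with the longest coding sequence. For the background of all genes it was the longest with that coding sequence, so the shares are not strictly comparable. ATTTA occurred in the last 300 bases of 1 of 10 members, Serpina10, and in 39.8% of 11088 compared protein-coding genes. The match lies 180 bases before the end of the transcript on the minus strand, at chr12:103614949-103614978, and is shown with its flanks and with the motif in capitals.
Serpina10: cttatgctcagttATTTAgatatatttgtg
TTTTT occurred in the last 300 bases of 5 members (Serpina1a, Serpina1b, Serpina1e, Serpina3m and Serpina6) and in 53.0% of those genes. In the Serpina1 copies none of these matches lay after the annotated coding sequence. On the transcripts used, only 10 to 89 bases follow it, so the last 300 bases of these copies are mostly coding. That limit holds for the ATTTA search too. Serpina10 had 3 TTTTT among its 2054 bases after the annotated coding sequence, none of them in the last 300. Serpina3n had neither motif in its last 300 bases. Binding of HuR was not measured in these libraries, and the letters alone say nothing of it.

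Neighbours in the same interval gave few further reads. Gm8893, an unprocessed pseudogene within the Serpina1b model, stood at 4.42 FPKM (97 reads) with HuR and 2.15 FPKM (49 reads) with β-Gal, 2.06-fold (1.44 to 2.96), a value that the overlap makes uncertain. Serpina11 stood at 7.79 FPKM with HuR and 7.34 FPKM with β-Gal, and Serpina12, which encodes the adipokine vaspin, at 6.78 FPKM with HuR and 7.22 FPKM with β-Gal. The pseudogene Serpina3d-ps stood at 1.65 FPKM with HuR and 2.96 FPKM with β-Gal, 0.557-fold (0.363 to 0.842). Other serpins of the interval, such as Serpina5, Serpina9, Serpina3c and Serpina3g, were under 1 FPKM in both libraries. On the X chromosome Serpina7, which encodes thyroxine-binding globulin and is a hormone carrier like corticosteroid-binding globulin, stood at 19.1 FPKM with HuR and 29.6 FPKM with β-Gal, 0.645-fold (0.577 to 0.720). Of 4 compared clade A serpins that are not members, 0 passed 2-fold and the median was -0.33. Over all compared genes 5.35% passed upwards and 8.31% downwards.

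**Figure D4:**
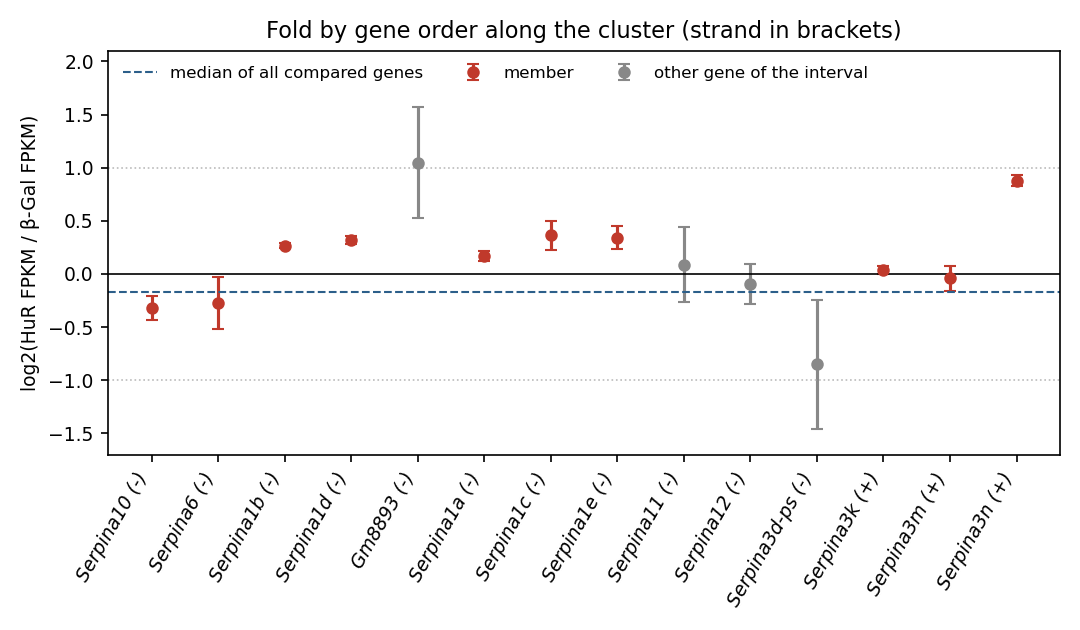
Log2 ratio of FPKM, HuR over β-Gal without a pseudocount (vertical axis), for the 14 compared genes of the interval in chromosomal order, with strand in brackets and bars for 95% counting intervals. Members are red and other genes grey. Neighbouring Serpina1 copies lie between 0 and 0.5, and Serpina3n stands above its neighbours Serpina3k and Serpina3m. The dashed line is the median of all compared genes, -0.17, which unlike the points was computed with a pseudocount of 1 FPKM.

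Serpins of other clades served as a wider comparison. Of 24 listed, 12 were compared, and their median was -0.06. Past 2-fold were 1 upwards and 0 downwards, against 5.35% and 8.31% of all compared genes. The higher one was Serpine2, protease nexin 1, at 5.43 FPKM with HuR and 0.928 FPKM with β-Gal (5.85-fold, 3.95 to 8.94). Serpine2 reached 1 FPKM with HuR only, so the filter left it no direction but higher. Serpinb6a stood at 128 FPKM with HuR and 91.0 FPKM with β-Gal, Serpinb9, an intracellular inhibitor of granzyme B, at 3.11 FPKM with HuR and 5.53 FPKM with β-Gal, and Serpinb1a at 0.393 FPKM with HuR and 1.40 FPKM with β-Gal.

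Genes that control serpin transcription in liver went both ways. Of 20 regulators, all compared, 0 passed 2-fold upwards and 2 downwards, against 5.35% and 8.31% of all compared genes. Their median was -0.33, beside -0.17 for all compared genes. Il6st, the shared signalling receptor of the interleukin-6 family, was among the lower ones, at 15.9 FPKM with HuR and 39.4 FPKM with β-Gal. Cebpb and Cebpd, transcription factors of the acute phase response, fell just short of 2-fold with the pseudocount. Cebpb stood at 177 FPKM with HuR and 88.2 FPKM with β-Gal, and Cebpd at 17.2 FPKM with HuR and 8.31 FPKM with β-Gal. Messenger RNA levels of these factors say nothing of their activity, and their part in the serpin values was not tested. The count past 2-fold was 6 at a pseudocount of 0.1 FPKM and 1 at 5 FPKM.

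The acute phase genes, to which Serpina3n is usually counted, had a median of 0.27 over 25 members. Of these, 2 passed 2-fold upwards and 0 downwards, against 5.35% and 8.31% of all compared genes. Saa4 stood at 82.3 FPKM with HuR and 24.5 FPKM with β-Gal, and Il1rn, the interleukin-1 receptor antagonist, at 7.26 FPKM with HuR and 3.01 FPKM with β-Gal. At a pseudocount of 5 FPKM, 1 gene of the list passed 2-fold. Others lay on the opposite side, with the iron hormone gene Hamp at 921 FPKM with HuR and 1790 FPKM with β-Gal and C-reactive protein (Crp) at 9.87 FPKM with HuR and 18.2 FPKM with β-Gal. Plasma protein genes that are not serpins had 0 of 24 past 2-fold and a median of 0.14. Apob lay lowest, at 69.3 FPKM with HuR and 137 FPKM with β-Gal, and Apoa2 highest, at 5221 FPKM with HuR and 3354 FPKM with β-Gal. Mug2, a relative of α2-macroglobulin, stood at 13.6 FPKM with HuR and 20.3 FPKM with β-Gal, and transthyretin (Ttr) at 1177 FPKM with HuR and 817 FPKM with β-Gal.

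The proteases and cofactors that these serpins act on or with include coagulation factors of the liver and proteases of other tissues. Of 17, 11 were listed and 10 compared, with a median of 0.15. Past 2-fold were 0 upwards and 1 downwards, against 5.35% and 8.31% of all compared genes. Klk1, tissue kallikrein, was the lower one, at 0.138 FPKM (2 reads) with HuR and 1.79 FPKM (27 reads) with β-Gal. Procr, the protein C receptor, stood at 4.54 FPKM with HuR and 1.78 FPKM with β-Gal. Ctrb1, chymotrypsinogen, stood at 1.15 FPKM with HuR and 0.123 FPKM with β-Gal, and Prtn3, neutrophil proteinase 3, at 1.64 FPKM with HuR and 0.472 FPKM with β-Gal. These low values make the count depend on the settings. At a pseudocount of 0.1 FPKM, or once values were centred on the median gene, 4 passed 2-fold, Klk1 downwards and Procr, Ctrb1 and Prtn3 upwards. At a pseudocount of 5 FPKM the count was 0. Klk1 reached 1 FPKM with β-Gal only, and Ctrb1 and Prtn3 with HuR only, so the filter set their directions.

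Around corticosteroid-binding globulin, the 12 glucocorticoid genes had a median of -0.12. Past 2-fold were 0 upwards and 1 downwards, against 5.35% and 8.31% of all compared genes. The lower one was Fkbp5, a co-chaperone of the glucocorticoid receptor, at 6.12 FPKM with HuR and 17.4 FPKM with β-Gal. Errfi1 stood at 162 FPKM with HuR and 283 FPKM with β-Gal. Dusp1 lay the other way, at 203 FPKM with HuR and 133 FPKM with β-Gal, as did Tsc22d3, which encodes GILZ, at 26.4 FPKM with HuR and 17.1 FPKM with β-Gal. All of these are known glucocorticoid targets, and they did not share a direction.

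Serpins are folded in and exported from the endoplasmic reticulum. Of 28 genes for folding, export and degradation there, 1 passed 2-fold upwards and 2 downwards. These counts lie near the shares over all compared genes, 5.35% upwards and 8.31% downwards. The list's median of -0.18 likewise lies near the -0.17 of all compared genes. Edem3 and Sel1l, which take part in the degradation of misfolded glycoproteins such as mutant α1-antitrypsin, were the lower ones. Edem3 stood at 1.96 FPKM with HuR and 8.77 FPKM with β-Gal (0.223-fold, 0.184 to 0.269), and Sel1l at 6.596 FPKM with HuR and 17.8 FPKM with β-Gal (0.370-fold, 0.325 to 0.421). Creld2, a stress-induced chaperone, was the higher one, at 70.0 FPKM with HuR and 31.2 FPKM with β-Gal, and Manf stood at 91.7 FPKM with HuR and 54.0 FPKM with β-Gal. At a pseudocount of 5 FPKM, 1 of these genes passed 2-fold in place of 3.

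**Figure D5:**
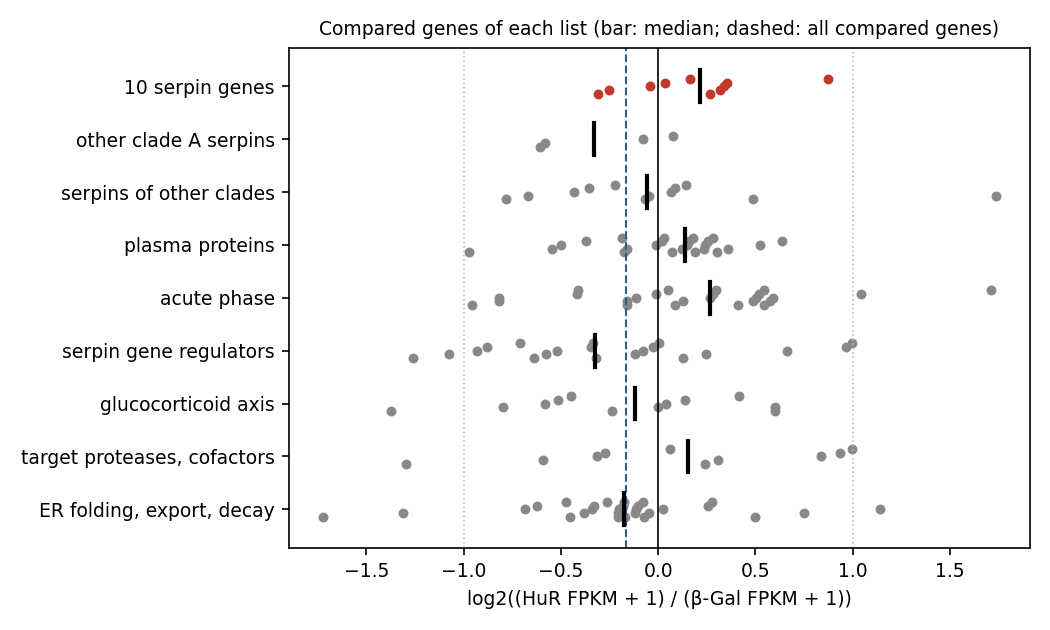
Log2 fold change with a pseudocount of 1 FPKM, HuR over β-Gal (horizontal axis), of the compared genes of each list, 1 point per gene, with a bar for the list's median. The dashed line is the median of all compared genes, -0.17 (-0.01 at 30 FPKM or more, not drawn). The dotted lines mark 2-fold, and the 10 serpin genes (red) have a median of 0.21 with none past 2-fold.

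Serpins are also made by cells other than hepatocytes, and markers of such cells differed between the libraries. Macrophage markers had a median of 1.16, with 4 of 7 compared genes past 2-fold upwards and all 7 above 0. Of all compared genes, 5.35% passed 2-fold upwards and 8.31% downwards. The 4 macrophage genes were Marco (14.8 FPKM with HuR and 5.55 FPKM with β-Gal), C1qb, C1qc and Cd68 (90.4 FPKM with HuR and 40.0 FPKM with β-Gal). The 10 markers summed to 466 FPKM with HuR and 242 FPKM with β-Gal. Most of that sum was Cd14, at 334 FPKM with HuR and 185 FPKM with β-Gal. Clec4f stood at 1.54 FPKM with HuR and 1.13 FPKM with β-Gal (1.36-fold, 0.840 to 2.23), an interval that spans 1. The macrophage count was 1 with the GC and length trend removed and 1 at a pseudocount of 5 FPKM. Stellate cell markers had 4 of 4 compared genes lower (8 summed to 1.67 FPKM with HuR and 11.95 FPKM with β-Gal), and intestinal markers 6 of 7 (8 summed to 18.6 FPKM with HuR and 89.4 FPKM with β-Gal). The stellate count was 0 at a pseudocount of 5 FPKM or with a filter of 5 FPKM. All 4 stellate genes, Col3a1, Col1a1, Acta2 and Des, reached 1 FPKM with β-Gal only. The filter thus left them no direction but lower, and the same holds for the intestinal genes Lypd8, Muc2 and Zg16. Of neutrophil and lymphocyte markers, 6 of 10 were listed and 0 reached 1 FPKM. Endothelial markers had 1 of 5 higher (Eng), cholangiocyte markers 1 of 6 higher (Krt7) and 2 lower (Cldn7 and Epcam), and hepatocyte markers 1 of 10 lower (Cps1) with a median of 0.11. At a pseudocount of 5 FPKM the counts of these 3 lists were 0. Cldn7 and Epcam reached 1 FPKM with β-Gal only, and Krt7 with HuR only, so the filter set their directions too. In bulk RNA, fewer cells of a type and less RNA per cell cannot be told apart, and the part of these cells in the value of Serpina3n was not tested.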

How the data were processed

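Each library came as a table of FPKM per gene, deposited by the authors, per the file headers. The submitters' processing notes name TopHat2, HTSeq 0.6.1 and build GRCm38. Neither these notes nor the labels give the annotation release, library kit, strand setting or FPKM formula. Identifiers matched GENCODE M21 for 20133 of 20505 genes. Whole reads were recovered from the FPKM steps with the rounded mean transcript length, within 0.02 of a read for 73.3% of genes with a length and 89.9% of those with 1 transcript. The recovered totals give the depth, and no count test was run. Genes that reached 1 FPKM in one library or both entered the comparison, with a pseudocount of 1 FPKM, and were called at 2-fold. Exact intervals at 95% came from scipy 1.17.1, and those of ratios of folds from a large-sample formula on the log scale. The fold and interval calculation was tested on simulated data. Named genes were the members, other clade A serpins of at least 1 FPKM, genes of the interval, and up to 4 genes of each list with the largest absolute log2 fold change, plus any past 2-fold. Members and lists were chosen with earlier results of these data known. Sequences came from RefSeq promoters (GRCm38.p6) and GENCODE transcripts. Alternatives were other pseudocounts, filters, thresholds and scalings. Some genes of the lists are not reported here.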

Additional observations from a re-analysis of the deposited data

How the results depend on the processing

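Centring the fold changes on the median compared gene called 1 member at 2-fold (Serpina3n, 1.04), and a threshold of 1.5-fold also called 1, against 0 as reported. The members' median of 0.21 became 0.38 with that median set to 0 and 0.026 with the GC content and length trend removed. Under the same settings the log2 difference of the summed Serpina1 copies became 0.43 and 0.064, that of the summed Serpina3 genes 0.44 and 0.16, and that of all 10 members 0.42 and 0.078. The cause of these shifts was not tested beyond the settings themselves. GC content was known for 12678 compared genes and all 10 members. Over all compared genes the number called was 1763 as reported, 2797 at a pseudocount of 0.1 FPKM, 590 at 5 FPKM and 4581 at 1.5-fold. Of those calls 39.2% were higher in the HuR library as reported and 59.3% (960 higher, 660 lower) with the median set to 0. The gene lists held 28 called genes as reported and 10 at a pseudocount of 5 FPKM. Other pseudocounts and filters left all 10 members within their counting intervals. The share of Serpina1b among Serpina1 reads, in a check chosen after seeing the data, was 52.6% with HuR and 52.8% with β-Gal per length of the 5-exon transcript. No paired analysis was possible because each group was 1 library, and for the same reason no library could be left out. Depth limits Serpina6 most, with 250 reads in the HuR library and 313 in the β-Gal library.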

Other observations

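Some secreted serpins outside clade A, the 5 named here after their values were seen, stood close to their control values, while others did not. Serpinc1, which encodes antithrombin, was at 470 FPKM in the HuR library and 442 FPKM in the β-Gal library (1.06-fold, 1.04 to 1.09). Serping1, the C1 inhibitor, was at 308 FPKM with HuR and 294.5 FPKM with β-Gal. Serpinf2, the α2-antiplasmin gene, was at 162 FPKM with HuR and 170.5 FPKM with β-Gal, and Serpind1, heparin cofactor II, at 7.60 FPKM with HuR and 7.885 FPKM with β-Gal. Serpinf1, which encodes the secreted factor PEDF, was at 560 FPKM with HuR and 507 FPKM with β-Gal.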
